A study of Mus musculus with 4 samples.

Results

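The comparison of 12 h with 6 h of insulin in mouse osteoblasts rested on 2 of the 4 arrays of the series. Log2 intensity at 6 h was subtracted from log2 intensity at 12 h for each gene, so that a positive value is a higher level at 12 h. Each gene was read from its probe set with the highest mean log2 intensity over all 4 arrays, among probe sets annotated to 1 gene symbol. A gene was kept where that mean reached the median of all probe sets other than controls, an intensity of 66.2. This left 11661 of 18193 named genes.

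Osteoblasts are the cells that lay down and mineralise bone matrix. Per the growth protocol in the labels these cells had no IGF-1 receptor, a close relative of the insulin receptor. The genotype entry of all 4 arrays instead reads IGF-1 null, and nothing used here settles which was meant. All cells were grown to confluence and deprived of serum, and received 10 nM insulin for 6, 12 or 24 h, with 1 control array at 0 h. Neither the promoter behind the deletion nor the number of clones or animals is given in the sources used here. RNA was measured on Affymetrix 3′ arrays with 1 array per time, so there was no replicate error, no test of any difference was possible, and "higher" and "lower" describe these 2 arrays only. There was no 12 h array without insulin, so the part of insulin and the part of time in culture cannot be told apart.

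Confluent osteoblasts leave the cell cycle as they mature, and then switch on genes for mineral deposition, such as alkaline phosphatase and bone sialoprotein. Insulin acts on osteoblasts through its own receptor and is known to promote their growth and differentiation. A serum step can also set the circadian clocks of cultured cells to a common phase. These points are background and not results of these arrays.

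The 2 arrays were close to one another. The median difference over the 11661 genes was 0.03 on the log2 scale, the SD over genes was 0.18, and the central 95% of genes lay between −0.32 and 0.44. Dimmer genes spread more widely, with an SD of 0.22 over the 2916 dimmest genes and 0.15 over the 2915 brightest. Array medians lay between 64.97 and 65.75 at all 4 times. The 0 h array stood far from the others, with 31.4% of genes at least 1.5-fold apart between 0 and 6 h, against 1.48% between 6 and 12 h. The sex-linked genes Eif2s3y and Xist read 12.2 and 109 there against at least 295 and 1278 on the insulin arrays, and the 0 h array was not used as a reference. All 18 probe sets for bacterial and phage RNA added at hybridisation were higher at 12 h, by 0.05 to 0.35 log2 with a median of 0.18, and their part in the results was not tested. The log2 difference between the 3′ and 5′ control probe sets of actin was 0.33 at 6 h and 0.50 at 12 h.

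More genes were higher than lower at 12 h. At least 1.5-fold higher were 133 genes (1.14% of those kept) and at least 1.5-fold lower were 39 (0.334%). At least 2-fold higher were 3 genes (0.0257%), Wif1, Lcn2 and Esm1, and at least 2-fold lower were 2 (0.0172%), Mcpt8 and Depdc1a. A smaller size was used below for lists of genes, at least 25% higher or, as the same ratio reversed, at least 20% lower. It was passed upward by 616 genes (5.28%) and downward by 292 (2.5%). Any amount higher were 57.1% of genes and any amount lower 42.7%. The genes next to the 1.5-fold threshold were Col11a2 inside (0.586) and Pycard outside (0.585) on the higher side, and Mcm5 inside (−0.588) and Cdca3 outside (−0.583) on the lower side. With the median difference of kept genes set to 0, 114 genes were higher and 51 lower, and 114 of the 133 and all 39 kept their place.

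The genes that differed by 1.5-fold leaned dim. Those higher at 12 h had intensities at 6 h from 51.1 to 4018, with a median of 224, and a median of 398 at 12 h, while the median of all kept genes at 6 h was 418. Of the 133, 50 lay among the 2916 dimmest kept genes, as did 15 of the 39, and 5 of the 133 were below the filter value at 6 h. A further probe set of the same gene above the filter was available for 36 of the 133, and it was higher at 12 h for 35 and at least 25% higher for 26. For the 39 genes there were 9 such second probe sets, of which 8 were lower and 6 at least 20% lower. The exceptions were Ramp1 among the higher genes (−0.09 on the second probe set) and Gsdme among the lower ones (0.36). For all genes higher at 12 h by any amount, 57.9% of second probe sets were higher and 5.98% at least 25% higher. For all genes lower by any amount, 65.8% were lower and 11.2% at least 20% lower. Probe sets of a gene share the RNA and the array, so here and below they check the measurement only.

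**Figure D1:**
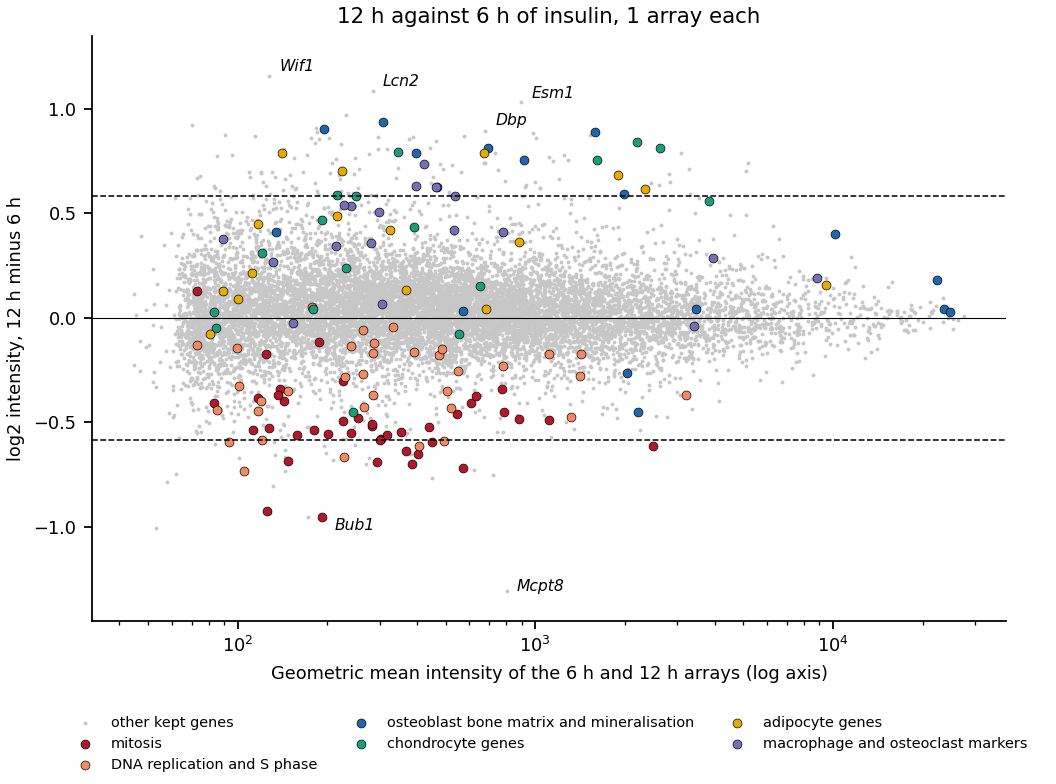
Each point is 1 kept gene, with the geometric mean of its 6 h and 12 h intensities on a log axis across and the log2 difference, 12 h minus 6 h, upward; coloured points are members of 6 gene lists and dashed lines mark 1.5-fold. Mitosis genes (red) lie almost wholly below 0, while bone, cartilage, adipocyte and macrophage genes lie mostly above it, against an all-gene median of 0.03.

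Genes that carry cells through mitosis were lower at 12 h as a group. Of 41 mitosis genes above the filter, 40 were lower at 12 h and 37 were at least 20% lower, while 0 were 25% higher. At least 1.5-fold lower were 10. The median difference was −0.52, against 0.03 over all kept genes. The 1 member that was not lower was Cdc25c, a phosphatase that activates Cdk1 (69.9 at 6 h and 76.6 at 12 h). Second probe sets were above the filter for 15 of the genes, and all 15 were lower, with a median of −0.43.

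Promoter sequences of 3 mitosis genes are shown because 2 short motifs were more frequent at the starts of mitosis genes than at those of all genes. The 3 genes were picked after the matches were seen, as ones that hold both motifs before the start. Each line is the 250 bases before the annotated start, 5′ to 3′ on the gene's own strand, from RefSeq on GRCm38.p6. Capitals mark the cell-cycle homology region core TTTGAA and the CCAAT box, each on either strand. The regions are chr4:118437344-118437593 on the minus strand for Cdc20, chr10:69352913-69353162 on the minus strand for Cdk1 and chr2:164769679-164769928 on the plus strand for Ube2c.
Cdc20: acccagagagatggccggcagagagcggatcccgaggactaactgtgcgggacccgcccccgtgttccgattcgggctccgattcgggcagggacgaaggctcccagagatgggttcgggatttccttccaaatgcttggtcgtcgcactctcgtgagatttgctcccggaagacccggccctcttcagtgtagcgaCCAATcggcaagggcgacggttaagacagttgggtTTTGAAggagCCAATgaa
Cdk1: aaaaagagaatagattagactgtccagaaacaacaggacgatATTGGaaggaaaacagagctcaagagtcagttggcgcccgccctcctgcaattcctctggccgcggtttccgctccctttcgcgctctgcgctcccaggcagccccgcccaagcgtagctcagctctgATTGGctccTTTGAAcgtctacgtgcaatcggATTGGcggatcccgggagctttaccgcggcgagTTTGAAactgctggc
Ube2c: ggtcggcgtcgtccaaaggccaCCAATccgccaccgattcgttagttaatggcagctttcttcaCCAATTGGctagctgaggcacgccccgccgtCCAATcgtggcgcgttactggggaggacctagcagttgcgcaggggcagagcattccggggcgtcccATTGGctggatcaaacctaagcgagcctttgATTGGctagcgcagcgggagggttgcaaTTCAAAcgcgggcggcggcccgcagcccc

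Counted back from the base before the start as −1, the TTTGAA match begins at −18 in Cdc20, at −71 and −15 in Cdk1 and at −29 in Ube2c. The nearest CCAAT box upstream of the last of these begins at −53, −48 and −57. In Ube2c the matches at −186 and −183 overlap, since CCAATTGG reads as a CCAAT box on both strands.

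In windows of 300 bases, 250 before the start and 50 after it, TTTGAA occurred in 29 of 37 windows of 35 mitosis genes (78.4%). It occurred in 17.9% of all 32851 promoter windows and in 11.8% of 12077 windows of the kept genes. A match that began before the start was found in 15 of the 37 (40.5%), against 16.1% and 10.6%, so for the others it lay in the 50 bases after it. Bub1, Cenpe, Nek2 and Troap had a CCAAT box but no TTTGAA in the window, and Birc5, Pttg1, Nusap1 and Mad2l1 had neither. The CCAAT box occurred in 83.8% of the mitosis windows, in 37.4% of all windows and in 37.4% of those of kept genes. DNA replication and S phase genes had TTTGAA in 13.5% of 37 windows and the CCAAT box in 56.8%. A match is only an occurrence of these letters.

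Kinases and cyclins that drive entry into mitosis were lower at 12 h. Cdk1, the mitotic cyclin-dependent kinase, read 917 at 6 h, 671 at 12 h and 816 at 24 h, a difference of −0.45 between the first 2. Its partners cyclin A2 (Ccna2) and cyclin B2 (Ccnb2) read 551 and 505 at 6 h, 365 and 321 at 12 h, and 519 and 449 at 24 h. Plk1, a kinase that acts from mitotic entry to exit, read 478 at 0 h, 374 at 6 h, 232 at 12 h and 329 at 24 h (−0.69). For each of these 4 genes the 12 h array was the lowest of the 4.

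The largest negative differences of the list were in a spindle checkpoint gene and a kinetochore gene. Bub1, a checkpoint kinase, read 425, 267, 138 and 234 at 0, 6, 12 and 24 h, a difference of −0.95 between 6 and 12 h. With the mean of all its probe sets, dim ones included, it differed by −0.47. Cenpf, a kinetochore protein, read 163, 173, 91.0 and 207 (−0.92), and its 24 h level was above that at 6 h. Aurkb and Birc5 (survivin), both of the chromosomal passenger complex, read 187 and 490 at 6 h against 116 and 301 at 12 h, although a second, dim probe set of Aurkb differed by only −0.15. Cdc20 and Ube2c, which act with the anaphase-promoting complex, went from 1323 and 1042 to 941 and 744. Anln (anillin), which builds the cleavage furrow, read 731, 444 and 672 at 6, 12 and 24 h (−0.72). Mki67, the proliferation marker Ki-67, read 525, 365 and 601.

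Genes of DNA replication and S phase were lower too, by a smaller median. Of 35 above the filter, 34 were lower at 12 h, 17 of them by at least 20% and 5 at least 1.5-fold, and 0 were 25% higher. The median was −0.28, and 19 of 20 second probe sets were lower. The exception by direction was Pold1, the catalytic subunit of DNA polymerase delta (175 and 181). Ccne2, the S phase cyclin E2, read 136 at 6 h and 81.7 at 12 h (−0.73). Tk1, a thymidine kinase, read 287 and 181 (−0.67). Mcm6, a subunit of the replicative helicase, read 503 and 329 (−0.61), with its second probe set at −0.54. E2f8, a repressor of the E2F family, read 115 and 76.0 (−0.59). Pcna, the sliding clamp of DNA polymerase, was the brightest of the list and read 3635 and 2817 (−0.37). The 4 genes before it had their lowest level of the 3 insulin arrays at 12 h.

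The 24 h array showed the mitosis genes nearer to their 6 h levels. The median 24 h minus 12 h difference was 0.43 for mitosis genes and 0.09 for S phase genes, against −0.03 for all kept genes. This difference shares the 12 h array with the first and is not independent of it. Between 24 and 6 h, which does not use the 12 h array, the medians were −0.11 and −0.19. At 24 h, 12 of all kept genes (0.103%) were 1.5-fold or more above their 12 h level and 12 (0.103%) as far below it.

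**Figure D2:**
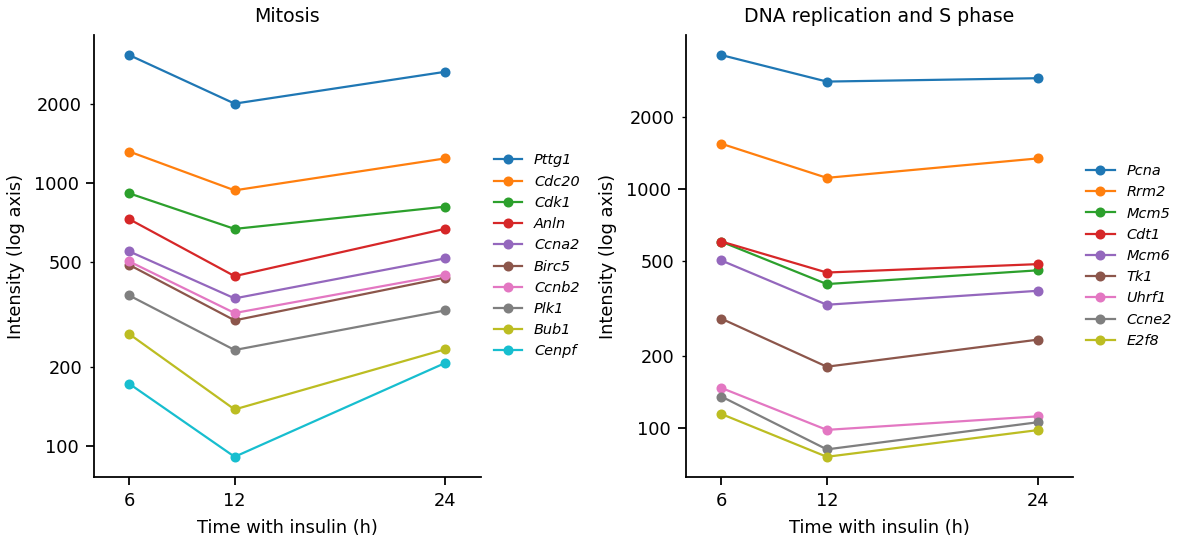
Intensity on a log axis of 10 mitosis genes (left) and 9 DNA replication genes (right) against time with insulin, with 1 array per point and lines joining the points of a gene. The 19 genes were chosen after their values were seen. All are lower at 12 h than at 6 h, for example Bub1 at 138 against 267, and at 24 h Cenpf (207) is above its 6 h level (173). Cdc25c and Pold1, the members that were not lower, are not drawn.

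Cell cycle genes outside the lists also appeared among the largest negative differences. Depdc1a, a regulator of mitosis, read 75.5 at 6 h and 37.7 at 12 h, 2.01-fold lower, so its 12 h value was below the brightness filter. Cdkn3, a phosphatase of cyclin-dependent kinases, read 178 and 93.1 (−0.93), and Pclaf, a partner of the sliding clamp, read 933 and 554 (−0.75, or −0.31 with the mean of its probe sets). Of the 39 genes at least 1.5-fold lower, 15 were members of the mitosis or S phase lists. Those lists held 41 and 35 of the 11661 kept genes. Of the 133 higher genes 0 were members, which says little given so small a share of all kept genes.

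The largest negative difference of all kept genes belonged to Mcpt8, a serine protease typical of basophils. It read 33.9 at 0 h, 1262 at 6 h, 509 at 12 h and 813 at 24 h, a difference of −1.31 between 6 and 12 h. Gzme, a granzyme whose gene also lies on chromosome 14, read 802, 484 and 516 at 6, 12 and 24 h (−0.73). Ccl11 (eotaxin), a chemokine for eosinophils, read 241, 124 and 179 (−0.96), and Ppbp, a platelet chemokine, read 174, 99.3 and 146 (−0.81). Each of these 4 genes was lowest at 12 h among the insulin arrays. They were named for a low 12 h level relative to 6 h, so this lowest point is not independent of the choice. Sema7a, a membrane-bound semaphorin, read 343, 211 and 256 (−0.70), and Tfpi2, a protease inhibitor of the matrix, read 348, 219 and 271 (−0.67). Others among the 20 largest were Tnfrsf23, a decoy receptor for TRAIL (−0.73), Ano1, a chloride channel (−0.68), Acvr2b, an activin receptor (−0.75), and the zinc finger gene Zfp953 (−0.78). Acvr2b and Zfp953 read 47.8 and 44.2 at 12 h, below the filter. The other probe sets of Acvr2b, both below the filter, pointed the other way (0.16 and 0.10).

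Genes of bone matrix and mineralisation were mostly higher at 12 h. Of 17 above the filter, 15 were higher, 10 by at least 25% and 8 at least 1.5-fold, and 1 was at least 20% lower. The median was 0.41, and 0.18 with the brightness filter at the 75th percentile. Of 9 second probe sets above the filter 7 were higher, with a median of 0.16. RNA came from whole cultures, in which more cells of a type and more RNA per cell cannot be told apart. The labelled cell type was read from its markers: the 5 osteoblast markers with a probe set (Sp7, Alpl, Ibsp, Col1a1 and Pth1r) were all above the filter and all higher at 12 h, and their summed intensity was 1.21 times that at 6 h.

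The largest differences in this group were in genes that set phosphate and mineral. Phex, a peptidase whose loss causes hypophosphataemia, read 191 at 0 h, 223 at 6 h, 427 at 12 h and 531 at 24 h (0.94). Smpd3, a sphingomyelinase needed for mineralisation, read 65.2, 142, 266 and 263 (0.90). Dmp1, an acidic matrix protein made by osteocytes, read 158, 1164, 2154 and 2645 (0.89), and its second probe set differed by 0.90. Alpl, the alkaline phosphatase that frees phosphate for mineral, read 61.5, 523, 920 and 1140 (0.81). All 4 genes were at least 1.5-fold above their 6 h level at 12 h, and all but Smpd3 were higher again at 24 h. With the mean of all probe sets of a gene, dim ones included, Phex differed by 0.42 and Smpd3 by 0.46, short of 1.5-fold. Ank, which carries pyrophosphate, an inhibitor of mineral, out of cells, was the 1 member more than 20% lower (2593 at 6 h and 1900 at 12 h, −0.45).

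Receptors and late matrix proteins followed with smaller differences. Ifitm5, a membrane protein of mineralising osteoblasts, read 302 and 523 at 6 and 12 h (0.79). Pth1r, the receptor for parathyroid hormone, read 703 and 1186 (0.75). Tnfrsf11b (osteoprotegerin), the decoy receptor for RANKL, read 376 and 580 (0.63), and Omd (osteomodulin), a bone proteoglycan, read 1614 and 2432 (0.59). Ibsp, bone sialoprotein, was bright already at 6 h and read 8849, 11706 and 13147 at 6, 12 and 24 h (0.40). Genes of the bulk matrix differed little on their brightest probe sets: Col1a1, the type I collagen chain, read 21001 and 23827 (0.18) and Sparc (osteonectin) 24482 and 24979 (0.03). These values lay near the highest intensities of the arrays, 27707 at 6 h and 27727 at 12 h. A second, dimmer probe set of Col1a1 read 1507 and 1825 (0.28).

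The listed osteoblast transcription factors differed less, by median, than the bone matrix and mineralisation genes. Of 15 above the filter, 3 were at least 25% higher and 0 were 20% lower, with a median of 0.10. Mef2c, a factor active in osteocytes, read 205, 315 and 418 at 6, 12 and 24 h (0.62), and its second probe set differed by 0.72. Twist1, a repressor of osteoblast maturation, read 766, 1013 and 809 (0.40). Sp7 (osterix), required for bone formation, read 125.2, 161 and 213 (0.36). Sp7 and Mef2c were highest at 24 h and Twist1 at 12 h.

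Secreted inhibitors of Wnt signalling stood at the top of the Wnt list. Wif1, which binds Wnt proteins, had the largest positive difference of all kept genes. It read 9.47, 85.4, 191 and 232 at 0, 6, 12 and 24 h, 2.23-fold higher at 12 h than at 6 h (1.16). Sfrp4 and Sfrp2, soluble relatives of the Wnt receptor, read 949 and 798 at 6 h and 1631 and 1252 at 12 h (0.78 and 0.65). These were the 3 genes at least 25% higher among 26 of the pathway, 0 were 20% lower, and the median was 0.17. Axin2, a target of Wnt signalling, read 101 and 120 (0.24).

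Cartilage genes were higher to a like extent. Of 17 chondrocyte genes above the filter, 9 were at least 25% and 6 at least 1.5-fold higher, 1 was over 20% lower, and the median was 0.43. All 4 second probe sets above the filter were higher, with a median of 0.41. Matn4, a matrilin, read 1635, 2928 and 3611 at 6, 12 and 24 h (0.84). Comp, a cartilage oligomeric matrix protein, read 1980, 3481 and 4051 (0.81), and Col9a1, a type IX collagen chain, 263, 457 and 510 (0.79). Cnmd (chondromodulin) read 1243, 2098 and 2591 (0.76). Each of these 4 genes was highest at 24 h. Col2a1, the main cartilage collagen, read 3151 and 4643 (0.56), while Sox9, the transcription factor of chondrocytes, read 618 and 687 (0.15). The lower member was Cilp, which read 286 and 210 (−0.45). The summed intensity of the chondrocyte markers Col2a1, Acan and Sox9 at 12 h was 1.41 times that at 6 h.

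Genes of fat cells were higher as well. Of 16 above the filter, 9 were at least 25% and 5 at least 1.5-fold higher, 0 were 20% lower, and the median was 0.39. It was 0.23 with all probe sets of a gene averaged, and 0.20 with suffixed probe sets left out. All 4 second probe sets above the filter were higher, with a median of 0.41. Pparg, the master regulator of fat cells, read 107, 184 and 196 at 6, 12 and 24 h (0.79). Its targets Adipoq (adiponectin), Plin4, a lipid droplet coat protein, and Lpl (lipoprotein lipase) read 511, 176 and 1492 at 6 h, and 885, 287 and 2394 at 12 h (0.79, 0.70 and 0.68). Fabp4, a fatty acid carrier, read 1879, 2883 and 3834 (0.62). The 5 genes were all highest at 24 h among the insulin arrays. The summed intensity of the 3 adipocyte markers Adipoq, Fabp4 and Cebpa was 1.56 times that at 6 h. Scd1, a fatty acid desaturase that fat cells express strongly, read 1597 and 2297 (0.52), but its second probe set differed by 0.07.

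Markers of macrophages were higher in the same array. Of 18 macrophage and osteoclast genes above the filter, 12 were at least 25% and 3 at least 1.5-fold higher, 0 were 20% lower, and the median was 0.40. All 6 second probe sets above the filter were higher, with a median of 0.36. C1qa and C1qb, chains of complement C1q made by macrophages, read 319 and 439 at 6 h and 494 and 657 at 12 h (0.63 and 0.58). Mrc1, the mannose receptor, read 372 and 575 (0.63), and Clec4n (dectin-2), a lectin of myeloid cells outside the list, read 425 and 777 (0.87). Laptm5, a lysosomal protein of blood cells, read 327 and 545 (0.74), but 1 of its 3 other probe sets pointed the other way. Among the members with the smallest differences were Ctsk (cathepsin K), a protease of osteoclasts, at 3468 and 3374 (−0.04), and Nfatc1, a transcription factor of osteoclasts, at 298 and 311 (0.06).

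The 6 defining macrophage markers were all higher at 12 h, and their summed intensity went from 4766 to 5946. Of these, Lyz2, Csf1r, Cd68 and Adgre1 were above the filter and Ptprc and Itgam below it. Itgam read 21.3 and 26.6, near the background of the array. Of 4 endothelial markers 1 was above the filter, and their summed intensity at 12 h was 0.85 times that at 6 h. Of 4 skeletal muscle markers 1 was above the filter (1.12 times), and the 3 smooth muscle markers Acta2, Myh11 and Cnn1 were all above it (1.07 times). The part of a different mix of cells in the higher bone, cartilage, fat and immune genes was not tested.

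**Figure D3:**
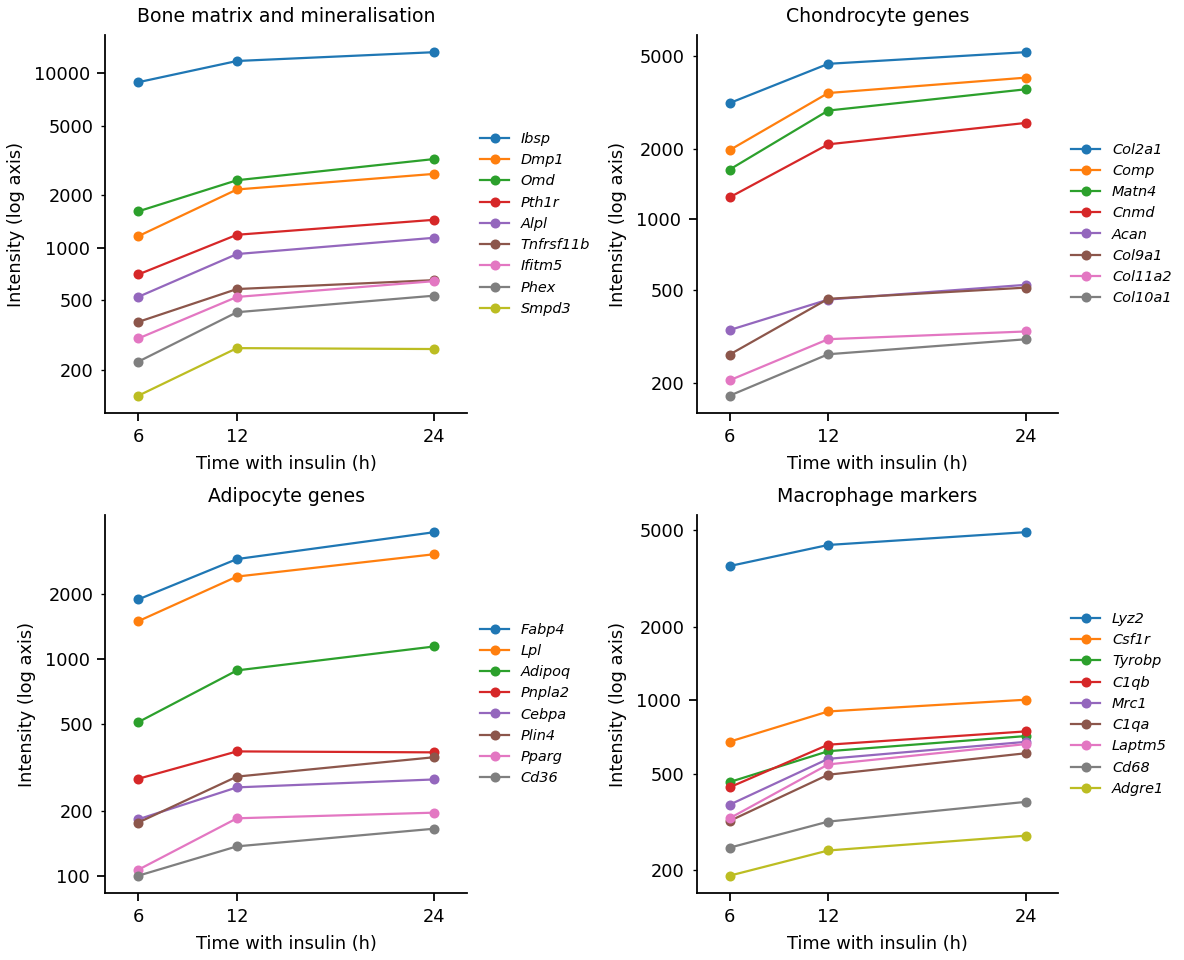
Intensity on a log axis against time with insulin for genes of bone matrix, cartilage, fat cells and macrophages, with 1 array per point and lines joining the points of a gene. The genes drawn were chosen after their values were seen, and every one is higher at 12 h than at 6 h. Most are higher again at 24 h, such as Dmp1 (1164, 2154 and 2645) and Adipoq (511, 885 and 1141). Not drawn are the lower members, 2 of 17 in the bone list and 3 of 17 in the cartilage list. The adipocyte list had 1 of 16 and the macrophage and osteoclast list 2 of 18.

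Lcn2, Hp and Saa3, all known from the acute phase response, were among the 20 largest positive differences, and chemokines lay on both sides of 0. Lcn2 (lipocalin 2), which binds bacterial siderophores, read 45.5, 196, 416 and 468 at 0, 6, 12 and 24 h (1.09). Hp (haptoglobin), which binds free haemoglobin, read 83.8, 1127, 2065 and 2589 (0.87). Saa3, a serum amyloid A protein, read 268, 151, 273 and 286 (0.86). All 3 were highest on the later 2 insulin arrays. In the list of 27 inflammatory mediators 7 were at least 25% higher and 5 at least 20% lower, so that its median was 0.04. The lower members were Ccl11 (above), Il33, an alarmin (443 and 300, −0.56), Cxcl10, an interferon-induced chemokine (168 and 116, −0.54), the monocyte chemokine Ccl2 (1229 and 905, −0.44) and Tnfaip6 (341 and 256, −0.41). Chemokines at least 1.5-fold higher were Cxcl5 of the list (239 and 419, 0.81), and Ccl6 (160 and 269, 0.74) and Ccl12 (92.1 and 139, 0.59) outside it. Socs3, the cytokine-induced inhibitor of JAK kinases, read 848 and 1237 (0.55), with second probe set at 0.61.

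Genes of the circadian clock lay on both sides of 0. The output gene Dbp and several repressors of the loop were higher, and Arntl (Bmal1), its activator, was lower. Of 16 clock genes above the filter 7 were at least 25% higher and 1 at least 20% lower, with a median of 0.08. Dbp, a transcription factor that binds D-boxes, read 732, 498, 925 and 693 at 0, 6, 12 and 24 h (0.89), and its second probe set differed by 0.83. Per3 and Per1, of the period repressors, read 123 and 162 at 6 h and 175 and 219 at 12 h (0.51 and 0.44). Nr1d2, a nuclear receptor that represses Arntl, read 906, 1233 and 1180 at 6, 12 and 24 h (0.44). Nr1d1, Tef and Cry2 each differed by 0.33. Arntl read 455, 315 and 329 (−0.53), while Clock, its partner, read 401 and 422 (0.08). With all probe sets averaged, Arntl differed by −0.16 and Nr1d2 by 0.19, short of the list sizes. Of 6 second probe sets in the list 3 were higher and 3 lower.

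The 7 higher genes had their highest insulin array at 12 h, and the 24 h levels lay between those at 6 and 12 h for all but Cry2, which was at 224 at both 6 and 24 h. The median 24 h minus 12 h difference of the clock list was −0.10, against 0.17 for bone matrix, 0.21 for cartilage and −0.03 for all kept genes. It was lower still for BMP and TGF-beta genes (−0.11), amino acid response targets (−0.13) and interferon-stimulated genes (−0.30). The 7 genes were those at least 25% higher at 12 h than at 6 h. Both differences use the 12 h array, so they are not independent. Per2 was below the filter.

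**Figure D4:**
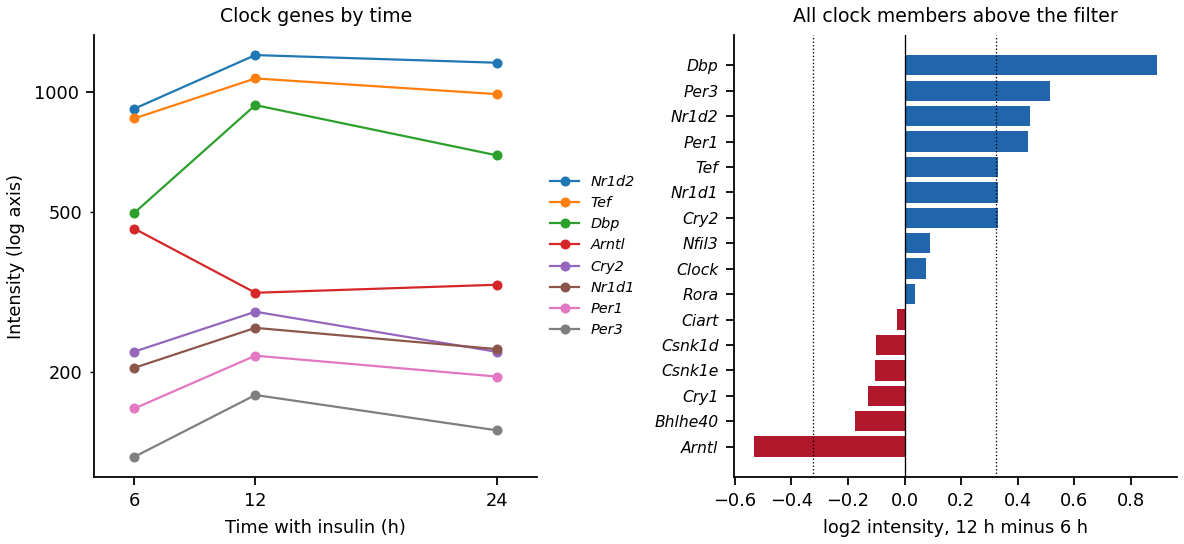
Left, intensity on a log axis of 8 clock genes against time with insulin, 1 array per point; right, the log2 difference, 12 h minus 6 h, of all 16 clock genes above the filter, with dotted lines at 25% higher and 20% lower. Dbp (498 to 925) has the longest bar and Arntl (455 to 315) is the 1 gene past the left dotted line.

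Upstream sequences of Per1 and Per3 are shown since both hold motifs of clock factors, and both were picked after the matches were seen. Capitals mark the E-box CACGTG, which the Clock and Arntl proteins bind, and the D-box TTATGNAA, which Dbp and Tef bind, each on either strand. The lines give the 250 bases before an annotated start from RefSeq on GRCm38.p6, at chr11:69098699-69098948 on the plus strand for Per1 and at chr4:151044666-151044915 on the minus strand for Per3.
Per1: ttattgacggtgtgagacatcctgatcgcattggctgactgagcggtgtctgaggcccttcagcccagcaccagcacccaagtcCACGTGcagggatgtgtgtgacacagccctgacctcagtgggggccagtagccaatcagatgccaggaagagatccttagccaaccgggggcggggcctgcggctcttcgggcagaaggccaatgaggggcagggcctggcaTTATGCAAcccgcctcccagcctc
Per3: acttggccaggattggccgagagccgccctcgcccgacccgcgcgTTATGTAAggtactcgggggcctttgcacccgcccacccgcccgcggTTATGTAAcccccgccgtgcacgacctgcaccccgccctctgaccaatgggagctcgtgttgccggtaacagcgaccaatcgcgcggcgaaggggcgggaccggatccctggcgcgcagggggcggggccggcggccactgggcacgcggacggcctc

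The Per1 matches begin at −166 (E-box) and −24 (D-box), and the D-boxes of Per3 begin at −205 and −158. In the 300-base windows the E-box occurred in 5 of 22 windows of 14 clock genes (22.7%), against 7.15% of all windows and 9.85% of those of kept genes. The D-box occurred in 2 of 22 (9.09%), against 3.38% and 1.91%. The E-box windows were those of Cry1, Ciart, Tef (both of its windows) and Per1, and Cry1 (−0.13) and Ciart (−0.03) were lower at 12 h. The D-box windows were those of Per1 and Per3 shown above. Dbp, Nr1d1, Nr1d2 and Cry2, all higher at 12 h, had neither motif in their windows.

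Genes of the hypoxia response and of glycolysis leaned lower at 12 h. Of 21 hypoxia genes 14 were lower by any amount, 4 by at least 20%, and 2 were at least 25% higher, with a median of −0.18. Egln3, a prolyl hydroxylase that marks HIF for destruction, read 449, 306 and 306 at 6, 12 and 24 h (−0.55). Bnip3, a mitophagy receptor, read 3260, 2343 and 2376 (−0.48). Those that were higher were Epas1 (HIF-2 alpha), at 371 and 575 (0.63), and Car9, a carbonic anhydrase, at 163 and 235 (0.53). Of 21 genes of glucose uptake and glycolysis 17 were lower by any amount but only 2 by at least 20%, with a median of −0.09. These were Slc16a3, a lactate exporter (276 and 184, −0.58), and Hk2, a hexokinase (699 and 550, −0.35). Aldoc, an aldolase, was the 1 member at least 25% higher (182 and 237, 0.39).

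The insulin and IGF genes themselves differed little between 6 and 12 h. Insr, the insulin receptor, read 181, 206 and 215 at 6, 12 and 24 h (0.18), and Igf1r, the receptor named as missing, read 259, 265 and 319 (0.03). A 3′ probe set need not lie in a deleted part of the gene, so the Igf1r level does not check the genotype. Irs1 and Irs2, the docking proteins of both receptors, read 5017 and 5527 (0.14) and 86.6 and 77.6 (−0.16). Foxo1, a transcription factor that insulin signalling keeps out of the nucleus, read 554 and 648 (0.23). Its 2 other probe sets above the filter differed by 0.39, which is more than 25% higher, and by 0.26. Of 33 genes of insulin signalling 1, Socs3, was at least 25% higher and 0 were 20% lower, with a median of 0.04. Of 21 FoxO targets 0 were 25% higher and 2 at least 20% lower, namely Bnip3 and Bcl2l11 (744 and 576, −0.37).

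Among 13 IGF ligands and binding proteins 2 were at least 25% higher and 0 were 20% lower, with a median of 0.12. Igf1 read 5532 and 5983 (0.11). The higher members were Igfbp5, which binds IGFs in bone matrix, at 2916 and 4338 (0.57), and Igfbp3, the main carrier of IGF in blood, at 695 and 968 (0.48). A second, dimmer probe set of Igfbp5 read 269 and 268, so its difference was seen on only 1 of the 2. That of Igfbp3 differed by 0.35.

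Matrix remodelling and growth factor genes held single members with larger differences. Mmp13, the collagenase of bone and cartilage, read 2564, 4201 and 4636 at 6, 12 and 24 h (0.71), and Mmp3 (stromelysin) read 2695, 4065 and 5131 (0.59). Reck, a membrane inhibitor of such proteases, read 1245, 1854 and 1564 (0.57), and Plat, the tissue plasminogen activator, read 1257 and 911 (−0.47). They were 4 of the 5 members past these sizes among 22 proteases and inhibitors, with a median of −0.02. Of 42 collagens and matrix genes 6 were at least 25% higher and 0 were 20% lower, led by Col2a1, Col14a1 (215 and 313, 0.54) and the proteoglycan Fmod (3794 and 5341, 0.49), with a median of 0.07. Of 24 genes of BMP and TGF-beta signalling 4 were at least 25% higher and 1 at least 20% lower, with a median of 0.09. Among secreted inhibitors of the pathway, Fst (follistatin) read 2271 and 3091 (0.45) and Grem1 (gremlin) 369 and 268 (−0.46), while Chrdl1, an inhibitor of BMPs outside the list, read 345 and 621 (0.85). Bambi, a decoy receptor, read 340 and 485 (0.51).

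Several groups held few or no members at least 25% higher or 20% lower. None of 48 genes of oxidative phosphorylation, 32 ribosomal proteins, 32 chaperones and unfolded protein genes, 23 p53 targets, 8 histones or 12 reference genes differed by that much in either direction. The medians of these lists lay between −0.02 and 0.04. Second probe sets differed from this for the p53 targets, where 9 of 12 were lower and 3 higher, with a median of −0.21. For the other lists named here the second probe sets had medians between −0.04 and 0.08. Actb, a common reference, read 23582 and 23243, but its second, far dimmer probe set read 270 and 344 (0.35). Of 24 immediate early genes 2 were at least 20% lower, Fosl1 (433 and 326, −0.41) and Egr2 (103 and 80.5, −0.36), and 0 were 25% higher. Of 17 genes of ERK feedback 1 was at least 20% lower, Errfi1 (881 and 694, −0.34). Of 36 ribosome biogenesis genes 29 were lower by any amount and 2 by at least 20%, Nop58 (527 and 366, −0.53) and Pno1 (1314 and 1012, −0.38), with a median of −0.11.

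Lipid, amino acid and interferon genes were likewise close. Of 21 sterol genes 17 were lower by any amount, 1 at least 20% lower (Idi1, 1080 and 815, −0.41) and 1 at least 25% higher (Tm7sf2, 259 and 352, 0.44), with a median of −0.08. Of 21 fatty acid synthesis genes 1 was past the size upward, Scd1, and 1 downward, Acsl4 (546 and 430, −0.34). Of 31 targets of the amino acid response 2 were at least 25% higher and 0 were 20% lower, with a median of 0.10. These were Slc7a5, a leucine transporter (1058 and 1350, 0.35), and Vldlr, a lipoprotein receptor (1084 and 1380, 0.35). Of 29 interferon-stimulated genes 1 was at least 25% higher (Ifi27l2a, 517 and 669, 0.37) and 2 at least 20% lower (Rtp4, 2165.7 and 1708, −0.34, and Trim30a, 117 and 85.2, −0.46), with a median of −0.06. A second probe set of Trim30a pointed the other way (0.47).

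**Figure D5:**
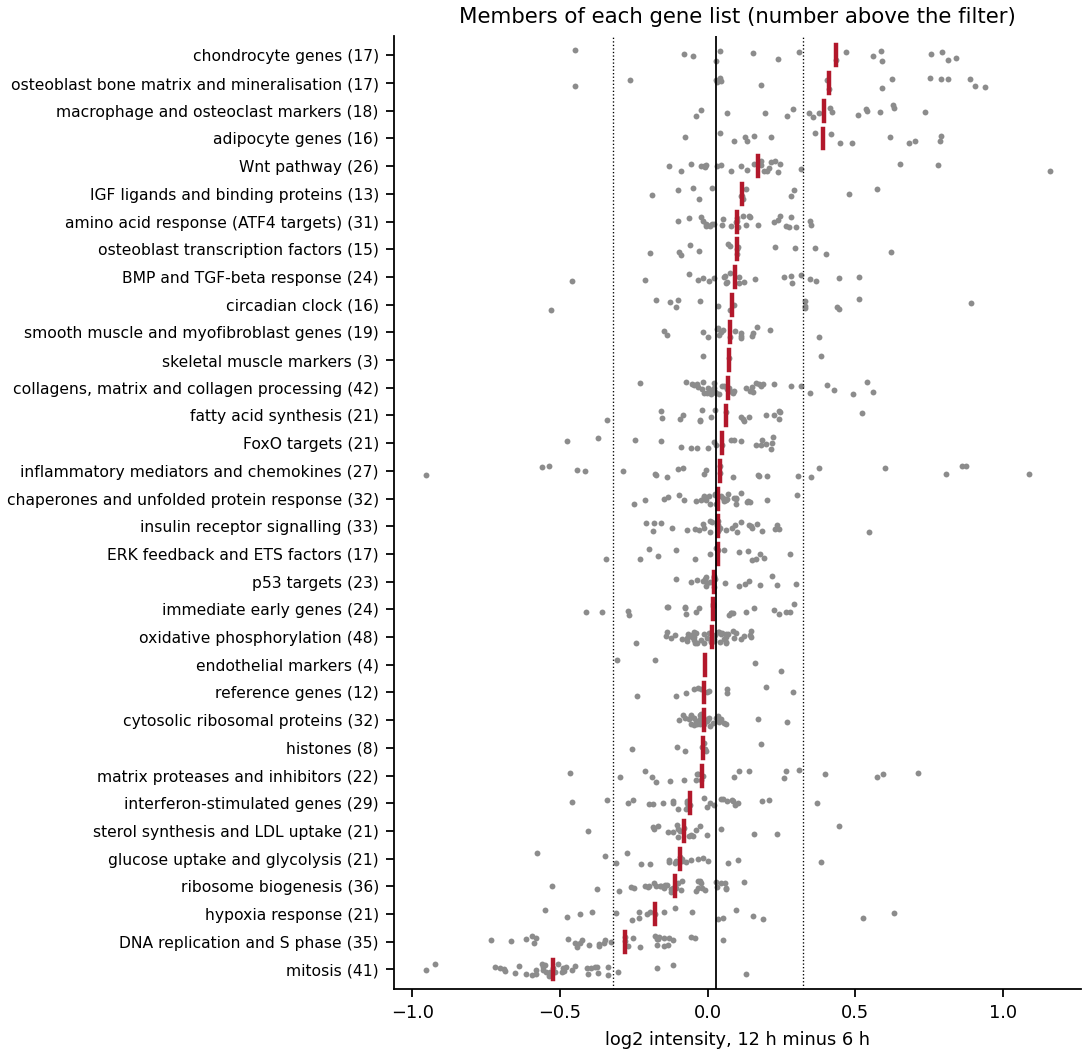
Each grey point is 1 gene of a list above the brightness filter, placed by its log2 difference, 12 h minus 6 h; red bars are list medians, the solid line is the all-gene median of 0.03, and dotted lines mark 25% higher and 20% lower. Mitosis (−0.52) and S phase (−0.28) have the lowest medians of the 34 lists, and cartilage (0.43), bone matrix (0.41), macrophage (0.40) and adipocyte genes (0.39) the highest; the adipocyte median was 0.20 with suffixed probe sets left out.

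Other genes among the 20 largest positive differences had varied roles. Esm1 (endocan), a secreted proteoglycan, read 18.8, 627, 1284 and 1543 at 0, 6, 12 and 24 h (1.03). Otor, a secreted protein first known from cochlear cartilage, read 165, 324 and 364 at 6, 12 and 24 h (0.97). Panx3, a pannexin channel of osteoblasts and chondrocytes, read 725, 1338 and 1583 (0.88), although its second, dim probe set differed by 0.28 and the mean of its 3 probe sets by 0.41. Rbp4, the carrier of retinol in blood, read 745, 1353 and 1656 (0.86), and Hpgd, which degrades prostaglandins, read 287, 523 and 623 (0.87). Each of these 5 was highest at 24 h. Spns2, a transporter of sphingosine 1-phosphate, read 135, 250 and 254 (0.89), Col23a1, a membrane collagen, 133, 250 and 273 (0.91) and Fbln7, a fibulin, 219, 398 and 478 (0.87). Dimmer genes were Trpm3, a cation channel (51.1 and 97.0), Pdzrn4 (84.3 and 154) and Map2, a microtubule protein (67.0 and 123), and a second probe set of Map2 differed by 0.05. Trpm3 was below the filter value at 0 h (49.0) and at 6 h, and its 5 other probe sets, all below the filter, differed by −0.16 to 0.13.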

How the data were processed

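The deposited table held linear intensities, 1 for every probe set on each array. RMA, which corrects background, normalizes arrays and summarises probes, is named in the submitters' processing notes. No version of it is given in the sources used here. RMA compresses differences of dim probe sets. Log2 of each intensity was taken, and 12 h minus 6 h computed. Of 45101 probe sets 64 were controls, 34945 had 1 gene symbol in the platform annotation given for this work, 932 several, and 9160 were unnamed here. With 1 array per group there was no test. The number of arrays limits the precision.

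The comparison, its 34 lists (944 entries, 872 with a probe set) and the alternatives were chosen with earlier results of these data known. Named genes were the 20 largest differences in each direction of at least 1.5-fold, with 1 gene named only by a clone-type symbol passed over, up to 4 members of each list at least 25% higher or 20% lower, and set insulin, bone and reference genes, of which 3 are not analysed here. Cell type markers were listed separately. Other members and genes in the text were chosen after their values were seen.

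The counting code was run on simulated differences set well past the threshold, which checks the code and not the precision of the counts. Alternatives were brightness filters, centring, quantile normalization, a loess curve (span 0.3), other probe set rules and means for medians. Promoter sequences came from RefSeq, GRCm38.p6. Python 3.11.15, numpy 2.4.6, pandas 2.3.3, statsmodels 0.14.6 and matplotlib 3.10.9 were used.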

Additional observations from a re-analysis of the deposited data

How the results depend on the processing

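No paired analysis was possible because each time had 1 array. The count of genes at least 1.5-fold higher moved from 133 to 53 with a filter at the 75th percentile of brightness and to 84 with the mean of all probe sets of a gene. The count at least 1.5-fold lower moved from 39 to 14 with the 75th percentile. At 2-fold the higher count of 3 became 5 without a filter, 1 at the 75th percentile, 1 with suffixed probe sets left out and 5 with filter and probe set taken from the 6 h and 12 h arrays alone. The lower count of 2 became 1 at the 75th percentile, 1 after quantile normalization and 1 with the 6 h and 12 h arrays alone, an alternative chosen after seeing the data. Stricter filters test fewer genes, 7020 in place of 11661. With a loess curve removed, 114 genes were higher and 55 lower, so that 67.5% of genes past 1.5-fold were higher, against 77.3%. Laptm5 turned to −0.13 with suffixed probe sets left out and Trim30a to 0.0065 with all its probe sets averaged, and the cause was not tested. Of 112 named genes 85, and of 34 list medians 26, held under every alternative run for them. A list median counted as held if it moved by less than 0.1, so a small one could change sign. That of FoxO targets went from 0.05 to −0.04 with probe sets averaged. Centring shifted every list median by 0.03 and so could move none past 0.1. A gene counted as held if it stayed on the same side of its fold and, past it, kept its direction. Of the gene values under alternatives, 27 no longer passed their fold, though in the direction reported, and 2 newly did. Both came with suffixed probe sets left out. Foxo1 was then 0.39, in the direction reported, while Actb turned from −0.02 to 0.35 on a dimmer probe set. The list medians that moved by over 0.1 were bone matrix, cartilage (0.76) and matrix proteases (0.10) at the 75th percentile, mitosis (−0.42) and adipocyte genes (0.23) with probe sets averaged, and adipocyte (0.20) and clock genes (0.21) with suffixed probe sets left out, besides those of the endothelial and skeletal muscle lists. The adipocyte median was 0.29 without a filter.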

Other observations

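Genes at least 1.5-fold apart that belong to none of the lists are given here as values, and all genes named here were chosen after their values were seen, so that their direction was fixed by the choice. Serping1, the C1 inhibitor, read 993, 1679 and 1991 at 6, 12 and 24 h (0.76 between the first 2). Cp (ceruloplasmin), a copper-bearing ferroxidase, read 957, 1515 and 1880 (0.66), with its second probe set at 0.67. Lbp, the lipopolysaccharide-binding protein, read 357, 560 and 659 (0.65), and Slpi, an inhibitor of neutrophil elastase, read 1495, 2429 and 3045 (0.70). Clu (clusterin), a secreted chaperone, read 2214, 3572 and 4101 (0.69), with its second probe set at 0.81. Chil1, a chitinase-like protein made by macrophages and chondrocytes, read 4018, 6711 and 8153 (0.74) and was the brightest at 6 h of the 133 higher genes. All 6 were highest at 24 h among the insulin arrays.

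Ptch1, the hedgehog receptor and also a target of the pathway, read 433, 442, 716 and 882 at 0, 6, 12 and 24 h (0.70). Lgr5, a receptor for R-spondins, read 629, 991 and 922 at 6, 12 and 24 h (0.66). Epyc (epiphycan), a cartilage proteoglycan, read 2257, 3547 and 4062 (0.65). Genes known from myeloid cells were Marco, a scavenger receptor (131, 237 and 276), Ms4a6d (166, 296 and 349), F13a1, the factor XIII chain (557, 962 and 1171), and Mmp12, the macrophage elastase (190, 323 and 399).

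On the lower side, Sgo1 and Sgo2a, the shugoshins that protect cohesion of sister chromatids, read 162 and 128 at 6 h, 107 and 80.2 at 12 h and 145 and 126 at 24 h. Ncapg, a condensin subunit, read 104, 68.2 and 98.8, Spc24, of the kinetochore, 242, 158 and 202, and Cep55, needed for the last step of cytokinesis, 180, 116 and 171. All 5 were lowest at 12 h among the insulin arrays.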
